A study of Mus musculus with 9 samples.

Results

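The genes described here are 10 components of the bone morphogenetic protein (BMP) and transforming growth factor-beta (TGF-beta) pathways, namely 1 ligand (Tgfb1), 6 receptors (Tgfbr1, Tgfbr2, Bmpr1a, Bmpr2, Acvr1b and Acvr2a) and 3 target genes (Id1, Id2 and Id3). They were taken by symbol from the 46095 symbols of the count table, and all 10 were present and were among the 14593 genes that passed the filter on low counts. RNA was sequenced from intestinal epithelial cells (IECs) that EDTA had released from the mouse colon, in 4 Smad4Vil-KO and 5 Smad4Vil-KO;Setd2Vil-KO libraries. All animals were on a C57BL/6J background, were injected with the carcinogen azoxymethane (AOM, 10 mg/kg) at 8 weeks of age, drank 2% dextran sulphate sodium (DSS), which injures the colonic epithelium, and had their IECs taken at 10 days of AOM/DSS. Both groups therefore share the Smad4 deletion and the AOM/DSS treatment, and they differ in Setd2, the methyltransferase that places the H3K36me3 mark on transcribed genes. Both deletions are driven by Villin-Cre, which acts in the intestinal epithelium, so other cells carried along with the IECs keep both genes. No library with intact Smad4 was analysed here. The labels give each library as a sample of its own, and the p-values measure the spread between these libraries.

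BMP and TGF-beta ligands bind a type II receptor, which phosphorylates a type I receptor, which in turn phosphorylates receptor-regulated SMAD proteins. Those SMADs usually enter the nucleus in a complex with SMAD4 and bind DNA at short motifs, and the Id genes are classical targets of the BMP branch. ID proteins lack a DNA-binding domain and hold E proteins away from DNA. In the gut, BMP signalling rises from the crypt base to the surface and opposes stem cell renewal, and TGF-beta receptors restrain epithelial growth and are often inactivated in colorectal tumours.

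Of the 10 genes, Tgfbr2, the type II receptor for TGF-beta, was the only one whose expression changed between the genotypes at an adjusted p under 0.05. It fell by 41.6% in Smad4Vil-KO;Setd2Vil-KO IECs. The other 9 genes did not pass the test, and their fitted differences lay between -0.28 and 0.36 on the log2 scale. Among all genes tested, 13.3% passed in either direction and 6.54% passed as lower, so that 1 of 10 is near the share of the whole table. The median log2 fold change of the 10 genes was 0.07, and that of all tested genes was -0.00059.

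The upstream sequences of both TGF-beta receptors are given first, because they pair the receptor that changed with its signalling partner that did not pass the test. They are the 250 bases before the annotated start on the strand of the gene, from RefSeq (GRCm38.p6, the assembly also named mm10), which held an entry for 9 of the 10 genes (all but Id1). Capitals mark matches to the SMAD-binding letters GTCTG, on either strand so that its reverse complement is marked too, and to GGCGCC, a motif bound by BMP SMADs. The window of Tgfbr2 lies at chr9:116175364-116175613 (minus strand) and that of Tgfbr1 at chr4:47352972-47353221 (plus strand).
Tgfbr2: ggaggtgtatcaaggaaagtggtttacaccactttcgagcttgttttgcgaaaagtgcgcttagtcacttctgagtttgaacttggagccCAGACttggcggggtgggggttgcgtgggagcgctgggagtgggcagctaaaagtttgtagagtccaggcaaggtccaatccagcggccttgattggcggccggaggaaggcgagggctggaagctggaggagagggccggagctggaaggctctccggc
Tgfbr1: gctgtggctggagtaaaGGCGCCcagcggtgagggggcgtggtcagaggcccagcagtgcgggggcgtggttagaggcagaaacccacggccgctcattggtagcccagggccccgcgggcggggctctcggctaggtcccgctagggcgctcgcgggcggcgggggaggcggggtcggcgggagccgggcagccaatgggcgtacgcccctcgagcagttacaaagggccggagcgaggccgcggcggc
The Tgfbr2 window held 1 CAGAC, 160 bases before the start, and no GGCGCC. It had a GC content of 58.4% with 12 CpG dinucleotides and no GC box (GGGCGG on either strand). The Tgfbr1 window held 1 GGCGCC, 233 bases before the start, 2 GC boxes, a GC content of 74.8% and 29 CpG dinucleotides. Of 32851 upstream windows of the same length, 42.2% held GTCTG on either strand, 9.59% held GGCGCC, 32.7% held GGGCGG and 0.167% held the SMAD palindrome GTCTAGAC, which shares no match with GTCTG and which neither receptor had. RefSeq lists another start for Tgfbr1, not shown, whose window held 1 CAGAC at 203 bases. These matches describe letters and were not tested as binding sites.

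The libraries held 12487129 to 17120202 counts, and levels are given as CPM (counts scaled to a fixed library total) after edgeR's TMM normalization, in which 1 count was worth 0.0593 to 0.0793 CPM. Setd2 fell in the Smad4Vil-KO;Setd2Vil-KO libraries, with a log2 fold change of -0.77 (adjusted p = 0.00756 in edgeR's quasi-likelihood test after Benjamini-Hochberg adjustment), and the groups did not overlap. Smad4 counts were present in both groups, with a log2 fold change of 0.13 between them (adjusted p = 0.819 by edgeR) that was negative in 7 of 20 alternatives, at -0.71 with a term for the Y-linked counts given next (adjusted p = 0.145 by edgeR) and -0.70 without the libraries that hold them (adjusted p = 0.0507 by edgeR). Summed counts of 4 Y-linked genes were 0 to 28 in all Smad4Vil-KO libraries and in Smad4Vil-KO;Setd2Vil-KO replicates 3 and 4, against 3857 to 4907 in replicates 1, 2 and 5. Xist, an X-linked gene, had 5 to 6 counts in those 3 libraries and 17833 to 26617 in all others. The labels give no sex, but this is the pattern of male animals in those 3 and of female animals in the others. Genotype and Y-linked counts, and with them sex, therefore cannot be told apart in those 3 libraries. Fits with a Y-linked term or without those libraries were made as well. Of the marker lists, 0 of 10 epithelial, 0 of 16 leukocyte and 0 of 6 tested stromal genes passed edgeR's test, against 2, 0 and 3 at an unadjusted p under 0.05, 1, 0 and 1 in DESeq2 and 1, 0 and 0 in limma-voom. The leukocyte markers summed to 79.7 to 198 CPM in Smad4Vil-KO and 63.4 to 163 CPM in Smad4Vil-KO;Setd2Vil-KO libraries, the stromal markers to 30.7 to 49.5 and 37.9 to 86.2 CPM, and the endothelial markers to 10.9 CPM at most, with Cldn5 at 0 throughout and 0 of 2 tested genes passing in any of these tools or at an unadjusted p under 0.05. Of the small-intestinal enterocyte markers, 8 of 12 tested were higher in Smad4Vil-KO;Setd2Vil-KO libraries (summed 608 to 691 against 843 to 1942 CPM), and of the colonocyte markers 2 of 9 were lower (6687 to 8073 against 3159 to 8237 CPM). Of 7 goblet cell markers 1 was lower, and of 7 stem cell markers 1 was higher and 1 lower. Among all tested genes 6.76% were higher and 6.54% lower by the same test, and nothing is read from the goblet and stem cell counts. The part of these cell types in the results was not tested. In bulk IECs, fewer cells that express a gene and less RNA of it per cell cannot be told apart.

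Levels were compared between genes only per kilobase of exon (merged exons of GENCODE). Id1 had the highest level, with a median of 49.6 CPM per kilobase over the 9 libraries, and its libraries did not overlap those of the next gene. Acvr1b, a type I receptor for activins, followed with 26.9 and Bmpr1a, a type I receptor for BMPs, with 20.8 CPM per kilobase, and these neighbours overlapped. Every library of Bmpr1a exceeded every library of the type II activin receptor Acvr2a, which had 7.69 CPM per kilobase. From there on each gene overlapped the next, through Tgfbr2 at 7.60, Tgfbr1 at 6.90, Id2 at 4.19, Bmpr2 at 4.18, Id3 at 2.61 and Tgfb1 at 1.08 CPM per kilobase. The plot of length-scaled levels shows that this order places the ligand last, Id1 first, and Id2 and Id3 among the lower genes.

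**Figure D1:**
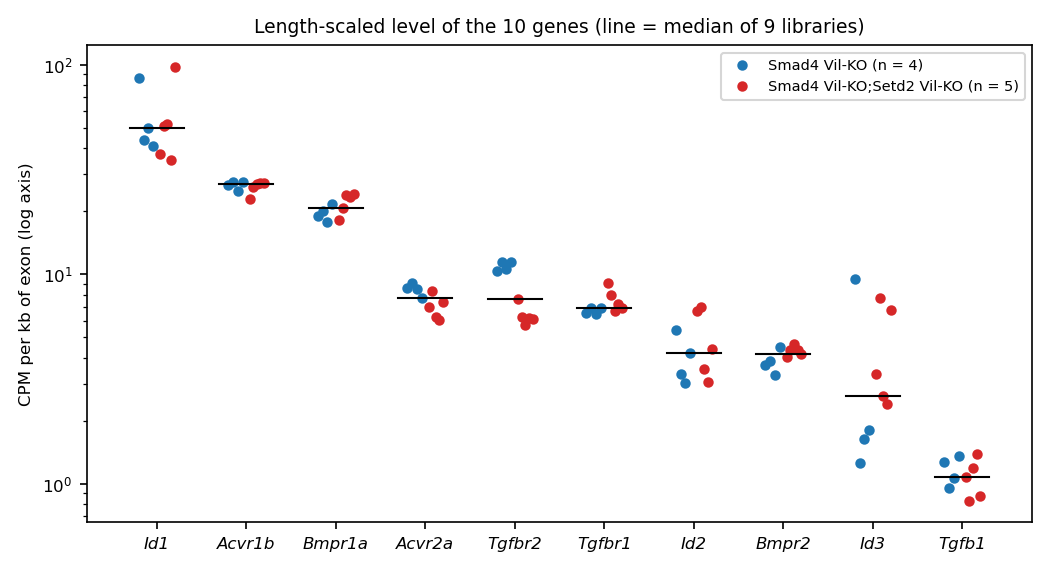
CPM per kilobase of merged exon (log axis) of the 10 genes in the 4 Smad4Vil-KO libraries (blue) and the 5 Smad4Vil-KO;Setd2Vil-KO libraries (red), with 1 point per library and a line at the median of all 9. Id1 stands highest at a median of 49.6 and Tgfb1 lowest at 1.08, and Tgfbr2 is the gene in which the colours separate fully.

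Tgfbr2 (chr9:116087695-116175363 in RefSeq) was at 84.5, 93.3, 86.6 and 93.3 CPM in Smad4Vil-KO replicates 1 to 4. In Smad4Vil-KO;Setd2Vil-KO replicates 1 to 5 it was at 62.2, 51.2, 46.6, 50.7 and 50.2 CPM. Every Smad4Vil-KO;Setd2Vil-KO library lay below every Smad4Vil-KO library, and replicate 1 was the highest of its group. Its mean was 89.4 ± 4.52 CPM (SD, n = 4) against 52.2 ± 5.88 CPM (SD, n = 5). The log2 fold change was -0.78 (standard error 0.09, 95% interval -0.98 to -0.58), with an adjusted p of 0.000779 by the edgeR test. That interval corresponds to 0.508 to 0.670 of the Smad4Vil-KO level. Tgfbr2 was the 1 gene of the 10 whose groups did not overlap, where 17.2% of all tested genes did not overlap, 8.34% as higher and 8.87% as lower. The call held under all 21 alternatives, with log2 fold changes from -0.88 to -0.73 and adjusted p from 7.39e-12 to 0.0109, including the fits with a Y-linked term and without the libraries with Y-linked counts.

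Tgfbr2 lies on the same chromosome as Setd2 (chr9:110532500-110618633 in RefSeq), 5.47 megabases away. Between them 31 genes were tested, of which 6 were lower and 0 higher at an adjusted p under 0.05 by edgeR. That is 19.4% lower, against 6.54% of all tested genes and 8.43% of the 759 tested genes of chromosome 9. The tested genes next to Tgfbr2 on either side did not pass the test, with log2 fold changes of 0.78 for Gm9385 (adjusted p = 0.115 by edgeR) and -0.16 for Rbms3 (adjusted p = 0.749 by edgeR). Linkage to the floxed Setd2 allele was not tested.

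Tgfbr1, the type I receptor that TGFBR2 activates, was at 42.8, 45.1, 42.2 and 44.9 CPM in the Smad4Vil-KO libraries and at 59.1, 52.0, 43.4, 47.1 and 45.3 CPM in the Smad4Vil-KO;Setd2Vil-KO libraries. The Smad4Vil-KO libraries lay close together. In the other group replicates 1 and 2 stood well above them, replicates 4 and 5 just above the highest of them, and replicate 3 within their range. Its log2 fold change was 0.17 (95% interval -0.04 to 0.39, adjusted p = 0.254 by edgeR). Replicates 1 and 2 hold Y-linked counts, and the log2 fold change was 0.05 both with a Y-linked term and without the libraries with Y-linked counts, and 0.10 without replicate 1. Tgfb1, the ligand, was at 6.40, 4.81, 5.40 and 6.82 CPM against 5.44, 4.19, 6.002, 6.99 and 4.41 CPM, on 57 to 100 counts per library. The groups overlapped throughout, and the log2 fold change of -0.11 had a 95% interval of -0.55 to 0.33 (adjusted p = 0.737 by edgeR) and turned to 0.15 with a Y-linked term and 0.16 without the libraries with Y-linked counts.

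Acvr2a, a type II receptor for activins and some BMPs, was at 49.0, 51.6, 48.3 and 43.7 CPM in the Smad4Vil-KO libraries. In the Smad4Vil-KO;Setd2Vil-KO libraries it was at 39.7, 47.3, 35.6, 34.4 and 42.0 CPM. Only replicate 2 of that group reached into the Smad4Vil-KO range. The log2 fold change was -0.28 (standard error 0.10, 95% interval -0.51 to -0.04), with an unadjusted p of 0.0236 and an adjusted p of 0.106 by edgeR. It passed the threshold in 5 of 21 alternatives, among them the fit without Smad4Vil-KO;Setd2Vil-KO replicate 2 (-0.34, adjusted p = 0.0447), that with a Y-linked term (-0.46, adjusted p = 0.0308) and that without the libraries with Y-linked counts (-0.46, adjusted p = 0.0109), and its adjusted p ranged from 0.0109 to 0.222. Exons of Acvr2a share 446 bases with Orc4 on the opposite strand, and since the strand setting of the counting is not known, reads from that stretch cannot be told apart. Acvr1b was at 117, 122, 110 and 121 CPM against 101, 116, 119, 121 and 120 CPM. Apart from the low replicate 1 of the Smad4Vil-KO;Setd2Vil-KO group the libraries coincided, and the log2 fold change was -0.03 (95% interval -0.19 to 0.14, adjusted p = 0.836 by edgeR), the narrowest interval of the 10 genes. With a Y-linked term and without the libraries with Y-linked counts it was 0.03.

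Of the BMP receptors, Bmpr1a was at 121, 127, 113 and 138 CPM in Smad4Vil-KO and 115, 132, 151, 149 and 153 CPM in Smad4Vil-KO;Setd2Vil-KO libraries. Replicates 3 to 5 of the latter exceeded every Smad4Vil-KO library, and replicates 1 and 2 lay within their range. Bmpr2, the type II receptor for BMPs, was at 66.7, 69.7, 59.7 and 81.1 CPM against 72.1, 78.2, 83.3, 78.1 and 75.2 CPM, and Smad4Vil-KO replicate 4 alone reached the range of the other group. The log2 fold changes were close to each other, at 0.17 for Bmpr1a (95% interval -0.05 to 0.39, adjusted p = 0.286 by edgeR) and 0.16 for Bmpr2 (95% interval -0.05 to 0.37, adjusted p = 0.268 by edgeR). Neither passed the test in any of 21 alternatives. Without the libraries with Y-linked counts Bmpr1a was at 0.27, and without Smad4Vil-KO replicate 3 Bmpr2 was at 0.10. Exons of Bmpr1a share 290 bases with Gm17110 on the opposite strand.

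**Figure D2:**
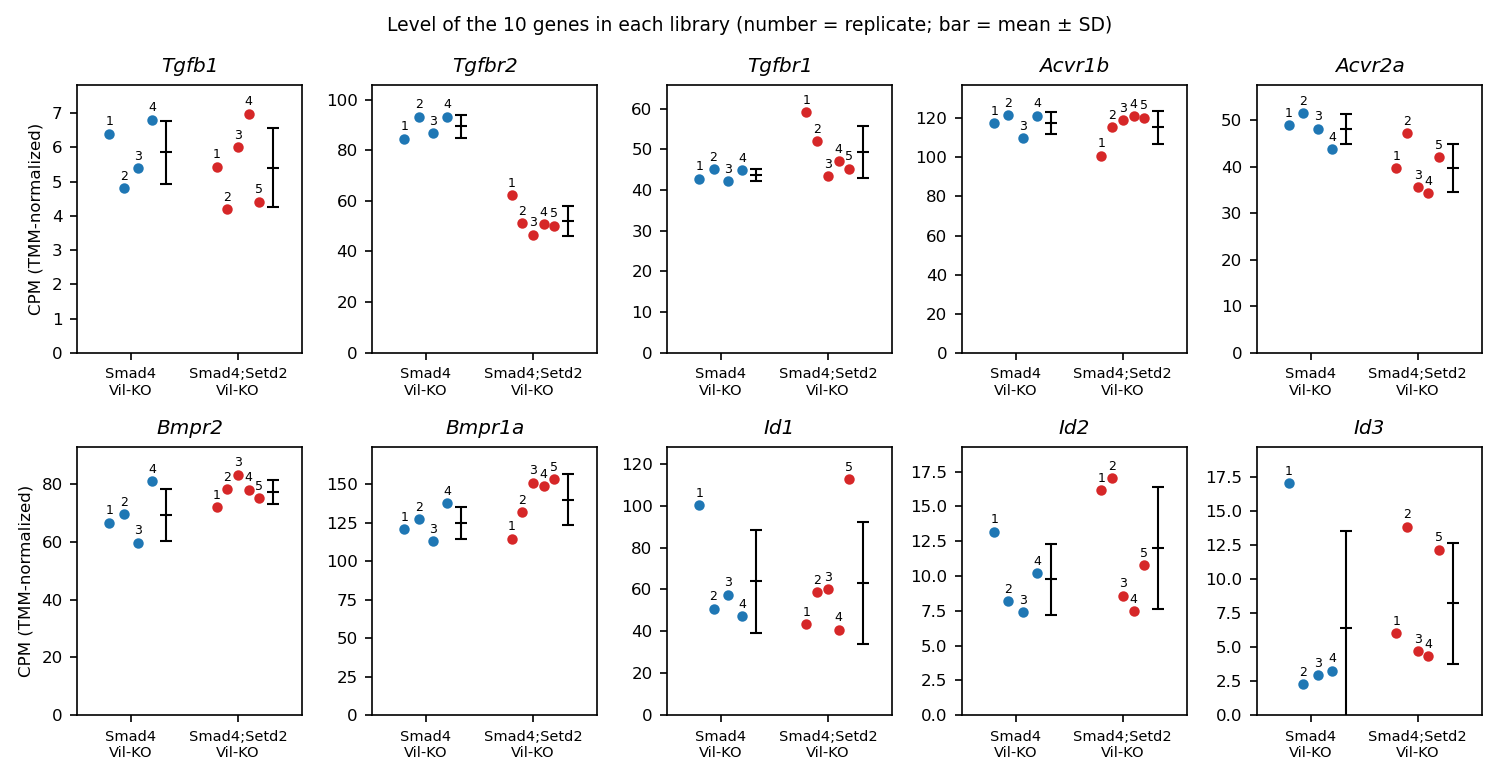
TMM-normalized CPM of the 10 genes in each library, with 1 panel per gene, Smad4Vil-KO libraries in blue and Smad4Vil-KO;Setd2Vil-KO libraries in red, the replicate number above each point and black bars for mean and SD (n = 4 and n = 5; the Id3 bar of Smad4Vil-KO runs below the axis, which starts at 0). The groups separate in Tgfbr2, at 84.5 to 93.3 against 46.6 to 62.2 CPM, and single libraries stand high in Id1 and Id3.

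The Id genes varied far more between libraries of 1 genotype than the receptors did. Their coefficients of variation were 26.4% to 112% in Smad4Vil-KO and 36.5% to 54.5% in Smad4Vil-KO;Setd2Vil-KO libraries, against 3.34% to 12.8% and 5.37% to 13.1% for the 6 receptors. In Smad4Vil-KO, replicate 1 was the highest library for each Id gene, and the others lay closer together. Over all genes replicate 1 also differed most from the others of its genotype (chi-square per gene 25.2 to 38.7, against 10.8 to 11.9 among the others). No Id gene passed the test between the genotypes in edgeR, DESeq2 or limma-voom, or had an unadjusted p under 0.05, and the intervals of their differences were wide. Id1 (chr2:152736251-152737410) was at 100.2, 50.8, 57.5 and 47.3 CPM in Smad4Vil-KO replicates 1 to 4. In the Smad4Vil-KO;Setd2Vil-KO replicates, in order, it was at 43.3, 58.8, 60.2, 40.7 and 113 CPM. A single library of each genotype, replicate 1 of the former and replicate 5 of the latter, stood well above the rest, and the remaining ones overlapped. The log2 fold change was -0.02 (95% interval -0.70 to 0.66, adjusted p = 0.974 by edgeR), and its sign turned in 6 of 21 alternatives.

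Id2 (chr12:25093799-25097140) was at 13.2, 8.19, 7.42 and 10.2 CPM in Smad4Vil-KO and at 16.2, 17.0, 8.58, 7.46 and 10.8 CPM in Smad4Vil-KO;Setd2Vil-KO libraries. Replicates 1 and 2 of the latter were the highest of all, and the other libraries of both genotypes mixed. The log2 fold change was 0.30 (95% interval -0.30 to 0.90, adjusted p = 0.479 by edgeR), and without the 3 libraries with Y-linked counts, which include replicates 1 and 2, it was -0.27 (adjusted p = 0.453). With 1 library left out it ranged from 0.15, without Smad4Vil-KO;Setd2Vil-KO replicate 2, to 0.49, without Smad4Vil-KO replicate 1, and without Smad4Vil-KO replicate 3 and Smad4Vil-KO;Setd2Vil-KO replicate 1 in turn it was 0.19 and 0.17. Id3 (chr4:136143497-136145755) was at 17.0, 2.25, 2.94 and 3.25 CPM in Smad4Vil-KO libraries, on 266, 38, 48 and 41 counts. In Smad4Vil-KO;Setd2Vil-KO libraries it was at 6.01, 13.9, 4.68, 4.32 and 12.2 CPM. Replicate 1 of Smad4Vil-KO had the highest level of all 9 libraries, while the other 3 of that genotype had the lowest. The log2 fold change was 0.36 (95% interval -0.98 to 1.70, adjusted p = 0.722 by edgeR). No single value holds for it, since without Smad4Vil-KO replicate 1 it was 1.55 (adjusted p = 0.0616) and without replicates 2, 3 and 4 it was 0.07, 0.12 and 0.14. Without Smad4Vil-KO;Setd2Vil-KO replicates 2 and 5 it was 0.09 and 0.19, and without the libraries with Y-linked counts it was -0.50 (adjusted p = 0.671).

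The Smad4 counts of the same libraries, which all carry the epithelial deletion, are set beside these values. Counts of the whole gene cannot tell RNA of the deleted allele from RNA of an intact one, so they are no measure of working SMAD4. Smad4 was at 92.6, 54.2, 54.3 and 55.3 CPM in the Smad4Vil-KO libraries. In the Smad4Vil-KO;Setd2Vil-KO libraries it was at 59.95, 114, 38.2, 40.4 and 98.6 CPM. The libraries fell into 3 with a high level (Smad4Vil-KO replicate 1 and Smad4Vil-KO;Setd2Vil-KO replicates 2 and 5, which also hold Y-linked counts) and 6 with 38.2 to 59.95 CPM. Those 3 libraries also had the 3 highest levels of Id3, at 12.2 to 17.0 CPM, against 2.25 to 6.01 CPM in the other 6. For Id1 the 2 highest libraries were among them, while the third, Smad4Vil-KO;Setd2Vil-KO replicate 2, lay within the range of the others. For Id2 the 3 libraries were at 10.8 to 17.0 CPM, and Smad4Vil-KO;Setd2Vil-KO replicate 1, with a Smad4 level of 59.95 CPM, reached 16.2 CPM. The plot of Id levels against Smad4 shows the separate set of 3 libraries at the right in each panel.

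**Figure D3:**
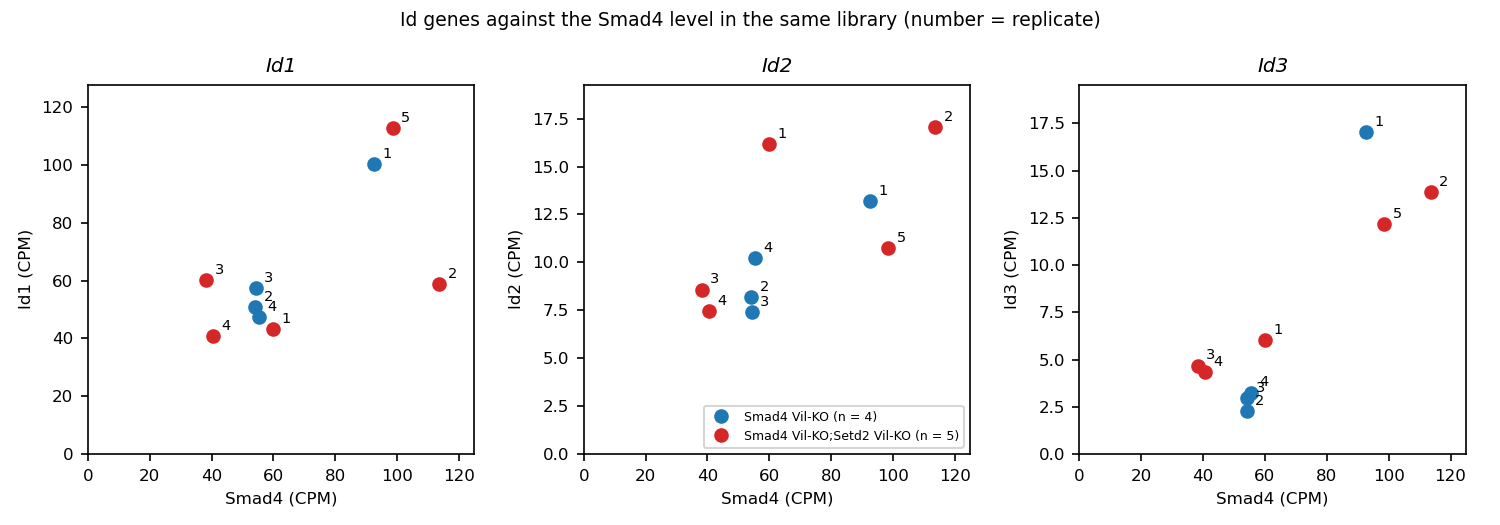
CPM of Id1, Id2 and Id3 (vertical axes) against CPM of Smad4 (horizontal axis) in the same library, with Smad4Vil-KO in blue, Smad4Vil-KO;Setd2Vil-KO in red and replicate numbers beside the points. The 3 libraries with 92.6 to 114 CPM of Smad4 have 12.2 to 17.0 CPM of Id3, and the other 6 have 2.25 to 6.01 CPM.

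In a fit across all genes with the log2 Smad4 level beside genotype, chosen after these values were seen, the slope for Id3 was 1.55 per doubling of Smad4 (standard error 0.32), with an adjusted p of 0.216 by edgeR. The slopes were 0.64 for Id1 (adjusted p = 0.363) and 0.59 for Id2 (adjusted p = 0.357), and none of the 10 genes passed, where 0.0685% of the other genes did. Because the libraries form separate sets in Smad4, no correlation is given, and the slopes rest on the 3 libraries with the high level. Without these 3 libraries the log2 fold change between genotypes was -0.10 for Id1 (adjusted p = 0.746 by edgeR), 0.34 for Id2 (adjusted p = 0.507 by edgeR) and 0.85 for Id3 (adjusted p = 0.0872 by edgeR). The 7 goblet cell markers summed to 30226 CPM in Smad4Vil-KO replicate 1 and 11325 to 14741 CPM in the other Smad4Vil-KO libraries, and to 13071 CPM in Smad4Vil-KO;Setd2Vil-KO replicate 5 and 4158 to 7946 CPM in the others of that genotype. These are the libraries in which Id1 was highest, and the part of goblet cells in the Id levels was not tested.

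The genes whose profiles over the 9 libraries were closest to those of the Id genes were found among 10904 genes of at least 5 CPM, by the root mean square distance of log2 CPM centred on each gene's mean. For Id1 these were Ctnnbip1, which encodes an inhibitor of beta-catenin (distance 0.19), and Mettl7a1 (0.23). Ctnnbip1 was at 13.1 CPM in Smad4Vil-KO replicate 1 and 13.0 CPM in Smad4Vil-KO;Setd2Vil-KO replicate 5, against 6.05 to 8.01 CPM elsewhere, the same pair of high libraries as Id1. For Id2 they were Cfap36 (0.15) and Cd55, a complement inhibitor of the cell surface (0.15). For Id3 they were Sult1a1, a sulfotransferase (0.38), and Retnlb, a goblet cell product (0.45). Sult1a1 was at 132, 173 and 154 CPM in the 3 libraries with the highest Id3 and at 35.1 to 78.0 CPM in the other 6. These distances describe profiles in the same libraries and carry no test.

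The rest of the pathway was described from 8 lists with 103 further genes, of which 68 were tested. Of these, 7 were higher and 3 lower in Smad4Vil-KO;Setd2Vil-KO IECs at an adjusted p under 0.05, or 14.7%, near the 13.3% of all tested genes (6.76% higher, 6.54% lower). Bmper, Gata4 and Neurod1 of the 7 and Fstl3 of the 3 reached the filter on low counts only through the group where they were high, so nothing is read from this count. The median log2 fold change of the 68 was -0.04. Among the 11 other receptors and co-receptors, 7 were tested and 1 passed. Rgma, a BMP co-receptor, fell by 1.19 on the log2 scale (from 3.93 to 1.72 CPM, adjusted p = 0.0413 by edgeR), a call that was lost in 11 of 20 alternatives. Its relative Rgmb had a log2 fold change of -0.39 that did not pass (90.2 against 68.9 CPM, adjusted p = 0.0502 by edgeR). Of the BMP ligands 6 of 14 and of the TGF-beta and activin ligands 5 of 13 were tested, and 0 passed in either list by edgeR, DESeq2 or limma-voom, against 1 in each at an unadjusted p under 0.05 in edgeR. Bmp3 was at 88.9 against 85.7 CPM and Bmp2 at 46.8 against 36.6 CPM.

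Of 8 tested extracellular antagonists 2 passed as higher and 1 as lower (37.5%, beside 13.3% of all tested genes). Bmper and Fstl3 among them reached the filter only through the group where they were high, so no direction is read for the list. Tsku, a secreted binder of BMPs, rose by 0.78 on the log2 scale (19.7 ± 5.32 to 33.9 ± 7.73 CPM, adjusted p = 0.0323 by edgeR), although its groups overlapped and the call was lost in 6 of 21 alternatives. Fstl3, which binds activins, passed as lower (1.47 against 0.528 CPM, log2 fold change -1.49, adjusted p = 0.0375 by edgeR) on 2 to 32 counts per library. It passed the filter only through the Smad4Vil-KO libraries, where it was high, and the call was lost in 10 of 20 alternatives. Bmper, a binder of BMPs, passed as higher (adjusted p = 0.0118 by edgeR) on 0 to 3 counts per Smad4Vil-KO library and 6 to 29 per Smad4Vil-KO;Setd2Vil-KO library. The ratio of its summed counts, scaled to depth, was 9.03 with a 95% exact interval of 4.37 to 21.6 that covers counting error only. It passed the filter only through the group where it was high, and could be tested in 14 alternatives. Noggin and gremlin genes of the list were below the filter.

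Of the 6 tested SMAD genes other than Smad4, 0 passed in edgeR, against 1 at an unadjusted p under 0.05 and 1 each in DESeq2 and limma-voom. Smad7, an inhibitory SMAD, was at 27.6 against 18.9 CPM (log2 fold change -0.55, adjusted p = 0.0636 by edgeR). Of 13 intracellular inhibitors 1 passed, Fkbp1a, whose product holds type I receptors inactive, with a rise of 0.27 on the log2 scale (110.4 to 133 CPM, adjusted p = 0.0414 by edgeR), which was lost in 10 of 21 alternatives. Of 14 tested targets 2 passed. Id4, a further Id gene, rose by 0.79 on the log2 scale (5.32 ± 0.73 to 9.18 ± 2.14 CPM, adjusted p = 0.0324 by edgeR), with 1 of the 5 Smad4Vil-KO;Setd2Vil-KO libraries inside the Smad4Vil-KO range, and that call was lost in 7 of 21 alternatives. Gata4, a transcription factor of the proximal small intestine, passed as higher (0.241 against 1.15 CPM, log2 fold change 2.20, adjusted p = 0.0144 by edgeR) on 2 to 25 counts per library. It passed the filter only through the group where it was high, and could be tested in 16 of 21 alternatives.

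Of the 9 genes for E proteins, which ID proteins bind, and for other basic helix-loop-helix factors, 3 passed (33.3%, beside 13.3% of all tested genes), from which nothing is read. Tcf3, which encodes E proteins, rose by 0.30 on the log2 scale (50.6 ± 3.01 to 62.2 ± 5.34 CPM, adjusted p = 0.0430 by edgeR), a call lost in 12 of 21 alternatives. Neurod1, a factor of enteroendocrine cells, passed as higher (0.849 against 2.53 CPM, log2 fold change 1.56, adjusted p = 0.0205 by edgeR), but it too passed the filter only through the group where it was high. Bhlha15, a factor of secretory cells, fell by 1.23 (10.5 to 4.49 CPM, adjusted p = 0.0155 by edgeR). The other E protein genes, Tcf4 and Tcf12, had log2 fold changes of -0.18 and 0.16 and did not pass.

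Most calls of the other pathway genes lay close to the threshold. The 7 higher and 3 lower became 8 and 7 in DESeq2, 7 and 6 in limma-voom, 8 and 8 without the libraries with Y-linked counts, and 4 and 0 with a Y-linked term. With that term the log2 fold changes were -1.53 for Rgma, -1.58 for Fstl3, 2.37 for Bmper, 0.33 for Fkbp1a, 0.30 for Tcf3 and -1.13 for Bhlha15. Except for Bmper and Bhlha15 these were no smaller than before, while the adjusted p by edgeR rose to 0.0688, 0.123, 0.0732, 0.0648, 0.118 and 0.0887 in that order. Without the libraries with Y-linked counts Fstl3 did not pass (-1.58, adjusted p = 0.092 by edgeR). The count was 2, 5, 4 and 3 without Smad4Vil-KO replicates 1, 2, 3 and 4, and 5, 6 and 3 without Smad4Vil-KO;Setd2Vil-KO replicates 1, 3 and 4. Leaving out any 1 of the Smad4Vil-KO libraries ended the calls of Rgma, Fstl3, Fkbp1a, Id4 and Tcf3. Tsku was lost without Smad4Vil-KO replicates 1, 2 or 4, Neurod1 without replicates 1, 3 or 4, and Bhlha15 without replicate 1. Of the Smad4Vil-KO;Setd2Vil-KO libraries, leaving out replicate 1 ended the calls of Rgma, Fstl3, Fkbp1a and Tcf3, replicate 2 that of Tsku, replicate 3 those of Tsku, Fkbp1a, Id4 and Tcf3, replicate 4 those of these same 4 genes and Rgma, and replicate 5 that of Rgma. In these 42 lost calls the log2 fold change stayed at 85.8% to 115% of its value with all libraries, and the adjusted p was 0.0508 to 0.114 by edgeR. Bmper fell below the filter without Smad4Vil-KO;Setd2Vil-KO replicates 1, 2, 4 or 5 and Gata4 without replicates 1, 3, 4 or 5 of that group, and they could not be tested there.

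**Figure D4:**
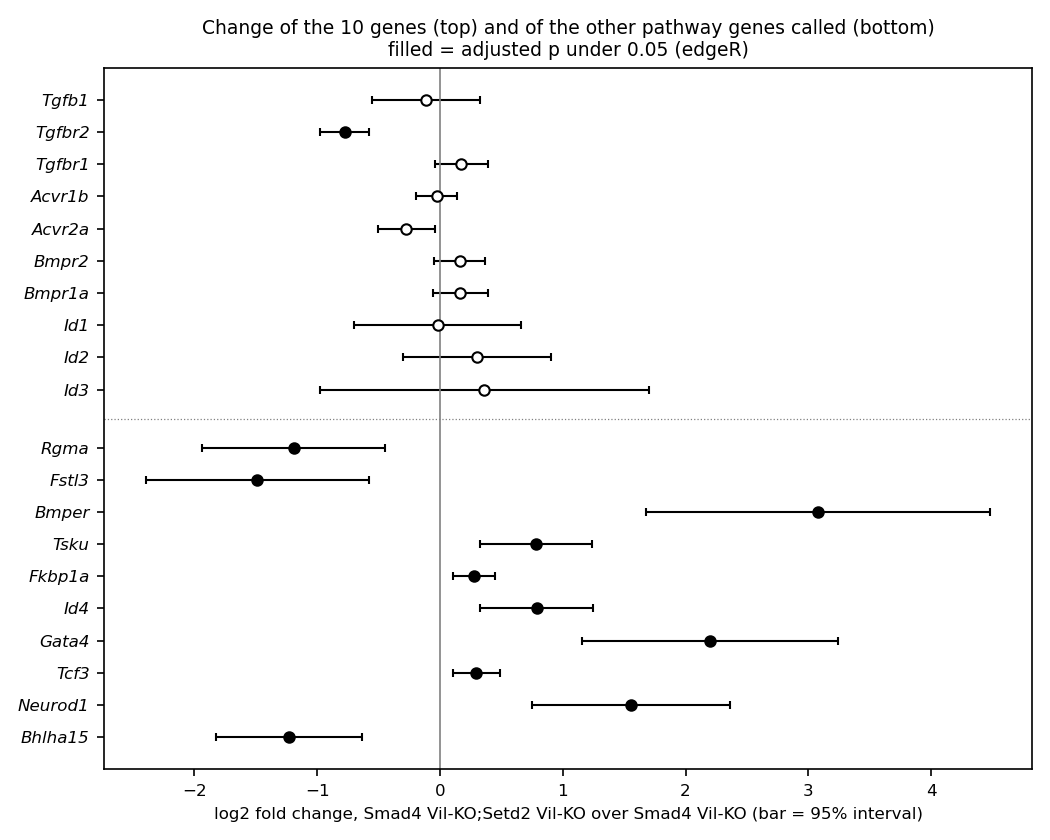
log2 fold change of Smad4Vil-KO;Setd2Vil-KO over Smad4Vil-KO IECs with 95% intervals for the 10 genes (above the dotted line) and for the 10 other pathway genes that passed the test (below it), filled where the adjusted p of edgeR was under 0.05. Tgfbr2 at -0.78 is the filled point of the upper set, and the interval of Id3 reaches from -0.98 to 1.70. In the lower set Bmper, Gata4, Neurod1 and Fstl3 reached the filter on low counts only through the group where they were high.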

How the data were processed

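RNA-seq of colonic IECs from 4 Smad4Vil-KO and 5 Smad4Vil-KO;Setd2Vil-KO samples, grouped by the genotype in the labels, was analysed. What the authors deposited are raw counts of each gene symbol in each library, as integers, neither normalized nor pooled. The submitters' processing notes name HISAT2 2.0 and mm10; the counting program, annotation and strand setting are not given in the sources used here. Date-like entries had replaced 27 symbols, which count toward the totals unnamed. Counts of 1 symbol do not separate isoforms.

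In R 4.3.3, low counts were removed by filterByExpr (edgeR 4.0.16), libraries normalized with TMM and genes tested with edgeR's quasi-likelihood test without covariates, with Benjamini-Hochberg adjustment over all 14593 genes (threshold 0.05). Each standard error is |log2 fold change| divided by the square root of F. Alternatives used DESeq2 1.42.0, limma 3.58.1 (voom with quality weights), DESeq2's size factors in edgeR, robust dispersion, library size alone, other filters and thresholds, each library left out, the replicate number as a block, and a Y-linked term or no libraries with over 1000 Y-linked counts. A Smad4 term and leaving out the 3 libraries with the highest Smad4 level were added after seeing the data. Libraries of 1 genotype differed beyond sampling noise (chi-square per gene at least 9.22) and were all counted. Depths of 12487129 to 17120202 counts make 1 count worth at most 0.0793 CPM.

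On counts simulated from these libraries (5 against 4, 14377 genes tested), edgeR recovered 21 of 100 genes changed 1.5-fold and 63 of 100 changed 2-fold, with 10 false calls. Exon lengths and overlaps came from GENCODE, upstream sequences and the chromosome 9 positions of Setd2 and Tgfbr2 from RefSeq, and the positions of the Id genes from GENCODE, all on GRCm38.

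Named are the 10 genes, Setd2, Smad4, the pathway genes that passed the test, up to 2 more per list by level, marker genes by count, and the 2 genes most like each Id gene; Rgmb, Smad7, Tcf4, Tcf12, Gm9385, Rbms3 and Cldn5 were named after their values were seen where this rule does not reach them. The 10 genes, the pathway and marker lists and the alternatives were chosen with earlier results of these data known. ChIP-seq, protein and patient data were not used here.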

Additional observations from a re-analysis of the deposited data

Results flagged for a closer look

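In 44 groups of libraries (22 genes in 2 genotypes) 5 single libraries stood far from the rest of their group by Dixon's ratio, where chance gives about 1 in 20 groups. Id3 was at 17.0 CPM in Smad4Vil-KO replicate 1, with the nearest other library at 3.25 CPM, and Smad4 was at 92.6 CPM in that same library, with the nearest other at 55.3 CPM. Id1 was at 113 CPM in Smad4Vil-KO;Setd2Vil-KO replicate 5, with the nearest other at 60.2 CPM. Acvr1b was at 101 CPM in Smad4Vil-KO;Setd2Vil-KO replicate 1, with the nearest other at 116 CPM, and Tsku was at 27.7 CPM in Smad4Vil-KO replicate 3, with the nearest other at 17.9 CPM.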

How the results depend on the processing

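Of 210 values (10 genes under 21 alternatives) 186 kept their direction and their side of the threshold, 5 passed it (all Acvr2a) and 19 turned sign; none of the 19 came from a gene that had passed, and the cause was not tested. Tgfb1 turned to 0.023 with limma-voom, 0.15 with the Y-linked term, 0.16 without the libraries with Y-linked counts and 0.13 without the 3 libraries with the highest Smad4 level. With 1 library left out it ranged from -0.21 to -0.031. Acvr1b turned to 0.010 with limma-voom, 0.0027 with library size alone, 0.029 with the Y-linked term and 0.034 without the libraries with Y-linked counts, and with 1 library left out it ranged from -0.056 to 0.019. Id1 turned to 0.0070 with library size alone, and with 1 library left out it ranged from -0.32 to 0.28. It kept its sign at -0.34 both with the Y-linked term and without the libraries with Y-linked counts. With the Y-linked term Id2 was -0.28 and Id3 -0.50, and without the libraries with Y-linked counts Id2 was -0.27 and Id3 -0.50. Smad4 turned to -0.18 with limma-voom, -0.14 with the replicate block, -0.71 with the Y-linked term, -0.70 without the libraries with Y-linked counts and -0.23 without the 3 libraries with the highest Smad4 level, and with 1 library left out it ranged from -0.11 to 0.37.

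The count of the 10 genes that passed was 2 in place of 1 with limma-voom, the Y-linked term, the Smad4 term and without the libraries with Y-linked counts, and 1 to 2 with 1 library left out. The count of all genes (1941) was 572 at an adjusted p under 0.01, 3107 under 0.1, 2924 with limma-voom, 1285 with the Y-linked term, 2930 without the libraries with Y-linked counts and 847 to 2696 with 1 library left out. The count of other pathway genes (10) was 5 with at least 10 counts in every library, 4 with the Y-linked term, 16 without the libraries with Y-linked counts and 2 to 13 with 1 library left out.

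Replicates of the same number correlated in their deviations at -0.10 to 0.09, and none matched its own number best. So few correlations cannot decide whether the numbers mark a pairing, and the main fit used none. With the replicate block 1618 genes, 9 other pathway genes and 1 of the 10 genes passed.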
